A study of Mus musculus with 6 samples.

Results

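The genes examined here encode the nuclear-encoded part of the mitochondrial respiratory chain. They were chosen by symbol alone: a gene was a member if its symbol began with Nduf followed by a, b, c, s or v, was Sdha, Sdhb, Sdhc or Sdhd, or began with Uqcr, with Cox and a digit from 4 to 8, or with Atp5. The rule took 94 of the 32286 genes in the count matrices, of which 39 carry complex I symbols, 4 encode complex II, 8 complex III, 18 complex IV and 17 complex V, while 8 are Ndufaf genes, whose products help to assemble complex I and are not part of the finished enzyme. Ndufa4 and its paralogue Ndufa4l2 are counted with complex I because of their symbols, although their products are known as complex IV subunits.

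Complexes I and II pass electrons from NADH and succinate to coenzyme Q, complex III passes them on to cytochrome c, and complex IV hands them to oxygen. Complexes I, III and IV pump protons across the inner mitochondrial membrane, and complex V, the ATP synthase, uses that gradient to make ATP. Several small complex IV subunits exist as a widely used isoform and a second one that is restricted to certain tissues, such as heart, muscle, lung or testis.

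Whole cerebella of 12-week-old mice were profiled by single-nucleus RNA sequencing, with 1 library per mouse, 3 Pcp2-ATXN1[82Q] mice (SCA1) and 3 wild-type littermates (WT) on a C57Bl6 background. The transgene of the SCA1 mice is human ATXN1 whose glutamine tract has been lengthened, and its Pcp2 promoter directs expression to Purkinje cells. The WT mice carry no transgene. UMIs (counted transcript molecules) were summed over the nuclei of each mouse that shared 1 of the study's cell type labels, and 13 of 24 labels had at least 10 nuclei in every mouse and were tested. A level is given as CPM, the UMIs of a gene scaled to a common total of that sum, and a share as a percentage of its UMIs.

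The libraries held 3354 to 10897 nuclei and 18916647 to 98366627 UMIs, and 29 to 76 nuclei per mouse carried the Purkinje label. Human ATXN1 stood at 4.74, 13.9 and 10.9 CPM in the Purkinje sums of the SCA1 mice and at 0 in those of the WT mice, although 15 to 37 UMIs of it were counted over all nuclei of each WT library. The labels Neuron.Gad1Gad2.Pcp2, Astrocyte.Gja.Slc1a3 and Neuron.Slc17a7.Gabra6 are called Purkinje cells, Bergmann glia and granule neurons here. Each of them held the highest level of the marker list of that name. Gja1.Htra1 nuclei are called velate astrocytes and Oligodendroyte.Trf.Il33 nuclei oligodendrocytes. The molecular layer interneuron list reached 2566 to 4983 CPM in the 4 Pvalb labels. The unipolar brush cell markers stood at 2397 CPM in Slc17a6.Sln neurons and at 44.0 CPM in Slc17a6.Nrgn neurons, and the nuclei labelled Endothelial_Tip.Dcn.Nnat, called Tip.Dcn.Nnat here, held 628 CPM of fibroblast-like and 104 CPM of endothelial markers. Pairs of libraries shared 7 to 44 cell barcodes. Mouse 1 of each genotype and mice 2 and 3 of each genotype had separate ranges of library numbers, set A and set B below. With 1 library per mouse, p-values between genotypes measure the spread of these mice within the library sets, library preparation included. The cell type tests have the mouse as a block, so their p-values measure the spread of the differences within mice.

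In the sums over all nuclei, the most counted complex IV member was Cox8a, a small subunit in the widely used form, with 136598 UMIs, and it also had the most UMIs per kilobase of gene in its complex (55438). Atp5b, the catalytic beta subunit of ATP synthase, had the most UMIs in complex V (106871), and Atp5k, a short membrane subunit gene, the most per kilobase (45007). Ndufa4 led the complex I symbols with 97908 UMIs and Ndufa2, an accessory subunit, led them per kilobase (14384). Sdha, the flavoprotein of succinate dehydrogenase, led complex II on both counts (47767 UMIs and 1704 per kilobase), while Uqcrh had the most UMIs (59213) and Uqcr10 the most per kilobase (14788) in complex III. Among assembly factors Ndufaf2 had the most UMIs (17072) and Ndufaf3 the most per kilobase (3102). Cox8c was the least counted member, with 1 UMI, and entered no test. The counts per kilobase divide by the whole gene span, introns included, which favours short genes. These ranks pool the mice and do not hold in each of them. In granule neurons Cox4i1 exceeded Cox8a in SCA1 mice 2 and 3 and WT mouse 2 (335 against 319 CPM), and not in the other mice. There Ndufs4 exceeded Ndufa4 in SCA1 mouse 3 (163 against 106 CPM) and WT mouse 3 (162 against 96.1 CPM), and not in the other mice.

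Of the UMIs of granule neurons the members made up 1.32, 1.20 and 0.425% in SCA1 mice 1, 2 and 3, while in WT mice 1, 2 and 3 they made up 1.45, 0.846 and 0.402%. The third mouse of each genotype was thus the lowest and the 2 genotypes overlapped. The Purkinje cells of the SCA1 mice gave shares of 0.557, 0.537 and 0.250% and those of the WT mice 0.532, 0.353 and 0.190%, with the same mice lowest. The highest mouse exceeded the lowest by 2.66-fold (Gad1Gad2.Lgi2 neurons) to 4.35-fold (oligodendrocytes) in the 13 labels. The mitochondrially encoded share of granule neurons ran from 0.598 to 4.98% and that of cytosolic ribosomal protein genes from 0.396 to 1.82% over the same libraries. The part that library preparation or RNA quality has in these differences was not tested.

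**Figure D1:**
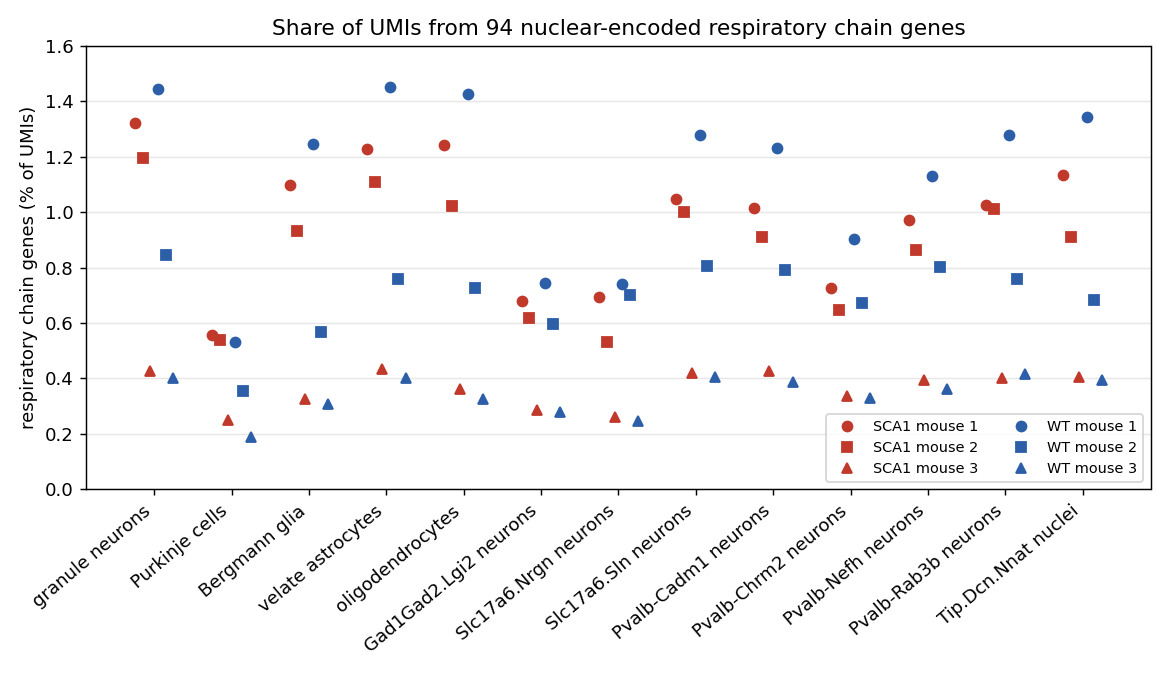
Share of UMIs (%) from the 94 members in each tested label, 1 point per mouse, with SCA1 mice in red and WT mice in blue. In each label the mice spread by 2.66-fold to 4.35-fold, the genotypes overlap, and the Purkinje points lie below the granule points of the same mice.

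The spread between mice was carried by most members but not to the same degree. Of the 87 members with a gene span and at least 20 UMIs in the granule neurons of every mouse, 78 were highest in WT mouse 1. Among these 87 members, 72 were lowest in WT mouse 3. Atp5o has no single span and is left out. Cox8a stood at 565, 494 and 133 CPM in SCA1 mice and at 606, 319 and 132 CPM in WT mice, whereas Ndufs4, a complex I subunit whose gene is 100 kb long, stood at 181, 187 and 163 CPM and at 180, 196 and 162 CPM. Cox8a therefore differed several-fold between mice of 1 genotype where Ndufs4 hardly moved. The 74 members whose gene spans less than 20 kb had a median log2 ratio of highest to lowest mouse of 2.06 in granule neurons, and the 13 longer members one of 0.89. Over these 87 genes Spearman's rho between gene span and that ratio was -0.74, a description across genes that share 6 libraries. Over 11767 protein-coding genes that met the same minimum, rho was -0.43 and the medians were 1.10 for 4731 shorter and 0.55 for 7036 longer genes. In Purkinje cells rho was -0.80 over 42 members.

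**Figure D2:**
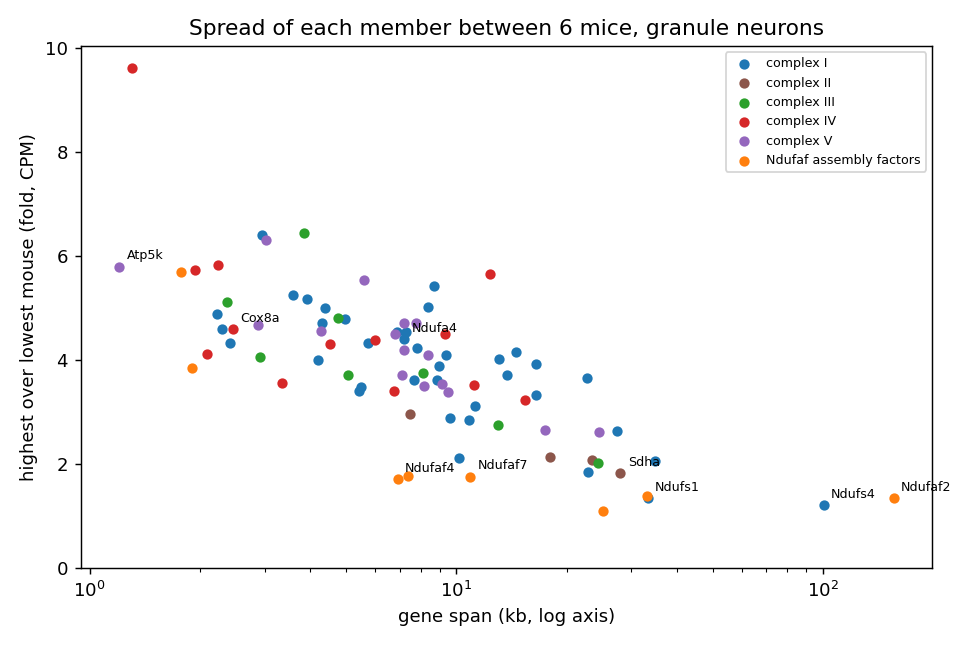
Highest over lowest of the 6 mice (fold of CPM, granule neurons) against gene span (kb, log axis), coloured by complex. Each point is a member with a gene span and at least 20 UMIs in every mouse. Members on short genes spread widely, and the 13 members of 20 kb or more have a median log2 ratio of 0.89 against 2.06 for the 74 shorter ones.

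The first comparison asks whether the mutant transgene in Purkinje cells goes with a change of these genes there or in other cell types. No member passed the test in any of the 13 labels (edgeR quasi-likelihood test with a term for the library set, Benjamini-Hochberg adjusted p of at most 0.05). Between 74 members (Slc17a6.Sln neurons) and 93 members (granule neurons) were tested per label. Over all genes the share called was 0.00547% in granule neurons, 0.00866% in oligodendrocytes and 0.0% in the other 11 labels, so the count of 0 among the members does not set them apart. At an unadjusted p below 0.05, 2 of 1112 tests of members passed by edgeR, 1 by DESeq2 and 0 by limma. The 2 by edgeR were Cox6b2 in Purkinje cells and Ndufaf3 in Gad1Gad2.Lgi2 neurons. With a block for same-numbered mice 15 tests passed. The number of all genes that passed this threshold is given only for Purkinje cells, below. The median standard error of a member's log2 fold change was 0.37 in Purkinje cells and 0.35 to 0.45 over the labels.

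In Purkinje cells 86 members were tested. Ndufs1, the largest iron-sulphur subunit of complex I, stood at 96.1, 86.1 and 77.8 CPM in SCA1 mice and at 76.8, 60.3 and 43.1 CPM in WT mice. It was the 1 member whose SCA1 values all lay above all WT values, while 11.6% of the 10517 genes tested there did so. The difference was 0.36 ± 0.21 (log2, SE) with an edgeR adjusted p of 0.891, and the gene overlaps Eef1b2 on the other strand. No member had all SCA1 values below all WT values, against 2.6% of genes. Cox6b2, the testis-type isoform of complex IV subunit 6B, stood at 5.93, 5.55 and 4.01 CPM in SCA1 mice and at 14.5, 16.9 and 4.49 CPM in WT mice. Its 2 groups overlapped at WT mouse 3, its log2 difference was -1.36 ± 0.50, and its edgeR p of 0.0201 became 0.559 after adjustment over all genes. Ndufaf3, an assembly factor of complex I, stood at 7.48, 2.51 and 2.40 CPM in the Gad1Gad2.Lgi2 neurons of SCA1 mice and at 17.4, 17.7 and 3.34 CPM in those of WT mice. Here too the groups overlapped at WT mouse 3, and 54 UMIs were counted in all. The log2 difference was -1.48 ± 0.68, and its edgeR p of 0.0495 became 1.00 after adjustment over all genes.

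The summed share of the members differed between genotypes by 0.36 on the log2 scale in Purkinje cells (SCA1 minus WT), by 0.07 within set A and by 0.50 within set B, beside a pooled SD of 0.70. In granule neurons the difference was 0.15, with -0.13 in set A and 0.29 in set B and a pooled SD of 0.92. Both turned without WT mouse 3, to -0.0414 in Purkinje cells and -0.34 in granule neurons, and rose to 0.73 and 0.67 without SCA1 mouse 3. The granule difference was also below 0 without SCA1 mouse 1 (-0.15) or SCA1 mouse 2 (-0.0743). The differences of the other labels lay between -0.13 and 0.21. The share in Purkinje cells divided by that in granule neurons of the same mouse was 0.422, 0.450 and 0.588 for the SCA1 animals, which overlap the WT values of 0.368, 0.418 and 0.472. A direct test of the difference, the genotype by cell type term of edgeR with each mouse as a block, called 0 members in each of 12 labels against granule neurons. The term called 0.0318% of all genes in Slc17a6.Sln neurons, 0.00606% in Pvalb-Cadm1 neurons, 0.00583% in Pvalb-Chrm2 neurons and 0.0% elsewhere. At an unadjusted p below 0.05 it passed for 9 of 1101 tests of members, and for 3 by DESeq2. The share of all genes at that threshold is not given.

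The pathways around the respiratory chain had no calls between genotypes either. In Purkinje cells edgeR called 0 of the 13 mitochondrially encoded subunits tested, 0 of 30 assembly factors and carriers outside the symbol rule, 0 of 15 enzymes of pyruvate dehydrogenase and the citric acid cycle, 0 of 16 glycolytic enzymes, 0 of 11 factors of mitochondrial biogenesis and 0 of 81 cytosolic ribosomal proteins, and in granule neurons it called 0 in each list too. At an unadjusted p below 0.05 these lists had 4 genes in Purkinje cells, where 256 of all 10517 genes passed upward and 464 downward. In granule neurons these lists had 1 gene, and the number of all genes that passed there is not given. Their median log2 differences in Purkinje cells ran from -0.12 (mitochondrially encoded) to 0.24 (glycolysis), beside 0.14 for the members and 0.02 for all genes.

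The second comparison sets each cell type against granule neurons, the most frequent label, within the same mice. The share of the members in Purkinje cells was 0.448 times that in granule neurons and lower in 6 of 6 mice, with ratios between 0.368 and 0.588. The ratio was 0.578 in Slc17a6.Nrgn neurons, 0.597 in Gad1Gad2.Lgi2 neurons and 0.677 in Pvalb-Chrm2 neurons, also with 6 of 6 mice below, and 0.962 with 3 of 6 mice below in velate astrocytes. In Purkinje cells complex IV had the lowest ratio (0.392), followed by complex III (0.423), I (0.435) and V (0.437). Complex II, whose genes are longer (median 20.7 kb), stood at 0.699, and the Ndufaf assembly factors at 0.960 with 4 of 6 mice below.

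These labels also differ in depth, and the share of the members moved with depth inside a single label. The median nucleus held 2156 to 6948 UMIs in granule neurons and 16186 to 58288 UMIs in Purkinje cells, depending on the mouse. When granule neurons were split by UMIs per nucleus, the members' share fell at every step in each of the 6 mice. In SCA1 mouse 1 it went from 1.91% at 3000 to 5000 UMIs to 0.687% at 20000 to 40000 UMIs, while the members' UMIs per nucleus rose from 89.5 to 169. In WT mouse 3 it went from 0.841% at 1000 to 3000 UMIs to 0.279% at 20000 to 40000 UMIs. The fall ran from 1.77-fold in WT mouse 2 (1000 to 3000 against 5000 to 10000 UMIs) to 4.48-fold in WT mouse 1 (3000 to 5000 against 40000 or more). The classes differ between mice, so these folds do not rank them. The study raised its debris threshold to 3000 UMIs for the samples of its first sequencing run only. In mouse 1 of each genotype the shallowest class began at 3000 UMIs. Each cell type is described below over all nuclei and over nuclei of 10000 to 40000 UMIs, and for the 4 labels whose nuclei were then still deeper than granule neurons also over 20000 to 40000 UMIs. These depth limits were set after the data had been seen, and they leave fewer nuclei and, in some labels, 4 or 5 mice.

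**Figure D3:**
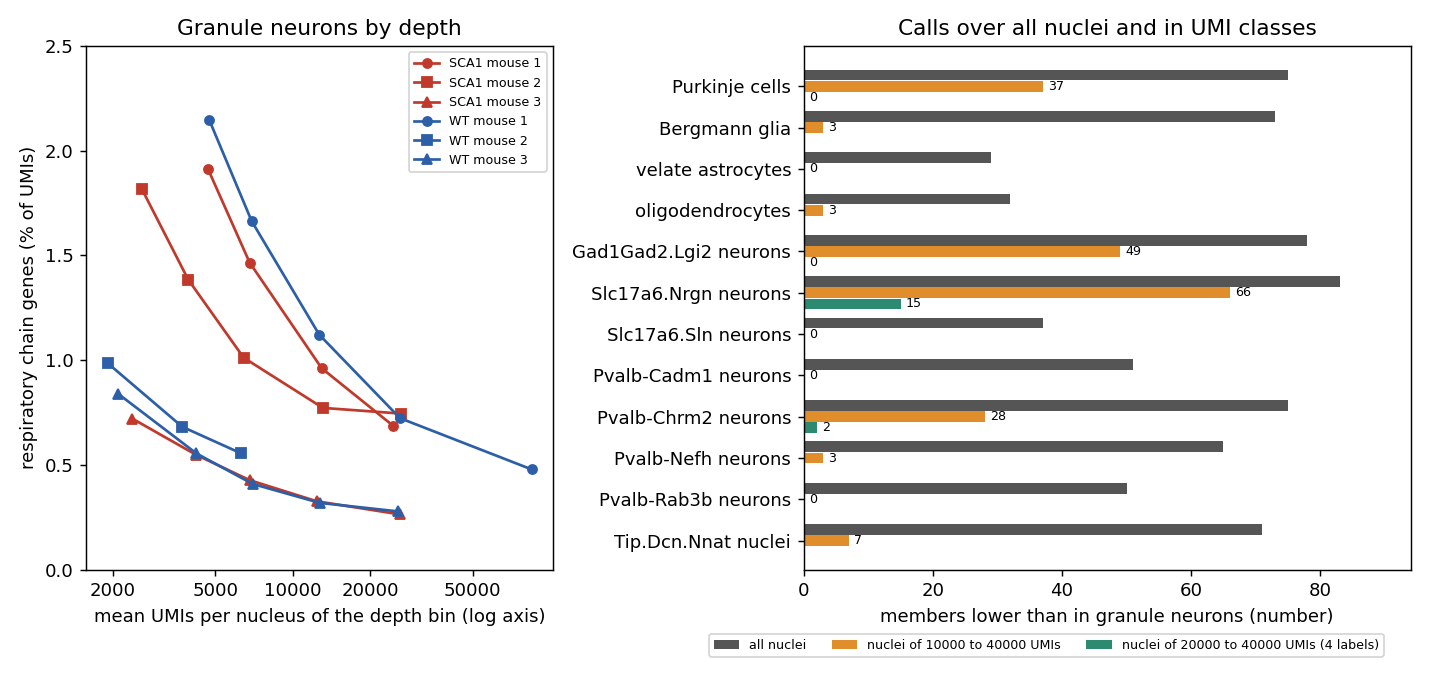
Left, share of UMIs (%) from the 94 members in granule neurons against mean UMIs per nucleus (log axis), 1 line per mouse; right, number of members lower than in granule neurons (edgeR adjusted p of at most 0.05) over all nuclei and within the depth limits. The share falls with depth in each mouse. The 75 lower members of Purkinje cells become 37 and then 0, against 3297 and then 360 granule nuclei.

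Over all nuclei, 75 of the 91 members tested were lower in Purkinje cells than in granule neurons and 4 were higher, where 35.5% of 16707 genes were lower and 25.2% higher. By gene span, 69 of 76 members under 20 kb were lower (median log2 fold change -1.04), and 5 of 14 longer ones (median -0.19). The share of all genes is not split by span, so the members are not set against genes of their own length. Complex III was lower throughout (8 of 8), as were 34 of 38 complex I, 15 of 17 complex V, 13 of 16 complex IV and 2 of 4 complex II members. Ndufs6, a zinc-binding complex I subunit, stood at 21.0, 13.0 and 3.43 CPM in the Purkinje cells of SCA1 mice and 22.8, 9.64 and 4.49 CPM in WT mice. In the granule neurons of the same mice it stood at 71.1, 58.3 and 18.5 CPM and at 83.9, 40.5 and 15.4 CPM, so that every mouse was lower in Purkinje cells. Its log2 fold change was -1.66 ± 0.14 (edgeR adjusted p = 6.65e-07). Atp5o, the stalk subunit OSCP of ATP synthase, had a log2 fold change of -1.60 ± 0.14 (edgeR adjusted p = 1.04e-06). Cox6a2, the heart and muscle isoform of subunit 6A, is among the 75 lower members but had 2 UMIs in Purkinje cells and 410 in granule neurons. It passed the filter on low counts only through granule neurons, so its call is not read as a result. Its pooled level of 0.190 CPM was 0.113 times the 1.69 CPM of granule neurons, with an exact counting interval of 0.0136 to 0.409.

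Among nuclei of 10000 to 40000 UMIs, 37 of 86 members were lower in Purkinje cells and 4 higher, where 28.7% of genes were lower and 21.8% higher. Among nuclei of 20000 to 40000 UMIs, 0 of 83 members were lower by edgeR (0 also at an unadjusted p below 0.05) and 3 were higher, where 20.1% of genes were lower and 20.5% higher. That test rested on 64 Purkinje and 360 granule nuclei of 4 mice. Its median standard error was 0.23 on the log2 scale, and the ratio of shares was 0.897. The granule label held 37532 nuclei over all mice, so the 360 are a deep tail of it. Doublets were not called again here. Only 1 mouse had at least 20 nuclei of both labels in the narrower class, SCA1 mouse 1, with a ratio of 0.992, and only WT mouse 1 did at 40000 UMIs or more, with 0.975. The classes match a range of UMIs and not the depth itself. Purkinje nuclei were still deeper than granule nuclei in the wider class, with a mean of 26876 UMIs against 14170 UMIs, and in the narrower one, with 31166 UMIs against 25555 UMIs.

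Over all nuclei the 4 members higher in Purkinje cells were Ndufaf4, Ndufaf7, Cox6b2 and Ndufaf2. Ndufaf4, an assembly factor of complex I, stood at 78.3, 60.2 and 55.0 CPM in SCA1 Purkinje cells and 61.4, 74.7 and 19.7 CPM in WT ones, against 37.9, 53.4 and 34.6 CPM and 38.7, 53.5 and 31.3 CPM in granule neurons. It was higher in 5 of 6 mice, with WT mouse 3 the exception, and its log2 fold change was 0.79 ± 0.16 (edgeR adjusted p = 0.00097). At 20000 to 40000 UMIs the log2 fold change was 1.39 ± 0.21 (edgeR adjusted p = 6.85e-05). Ndufaf7, a methyltransferase that acts on complex I, had a log2 fold change of 0.39 ± 0.13 over all nuclei (edgeR adjusted p = 0.0186) and of 0.94 ± 0.21 at 20000 to 40000 UMIs (edgeR adjusted p = 0.00235). Cox6b2 stood at 8.56 ± 5.62 CPM (mean ± SD, n = 6) in Purkinje cells and at 3.33 ± 1.94 CPM in granule neurons. It was higher in 6 of 6 mice, with a log2 fold change of 1.67 ± 0.36 (edgeR adjusted p = 0.00152). Cox6b2 was also called higher at 10000 to 40000 UMIs and was not tested at 20000 to 40000 UMIs. Ndufaf2 rose over all nuclei (0.45 ± 0.13, edgeR adjusted p = 0.00975) and was not called within either depth class. Atp5a1, the alpha subunit of ATP synthase, which overlaps Haus1 on the other strand, was called higher within both depth classes and not over all nuclei. With library size as the only scaling the median of all genes in Purkinje cells moved from -0.20 to -0.51, and of the 4 higher members Cox6b2 (1.35) and Ndufaf4 (0.47) were then called.

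Bergmann glia, the radial astrocytes that ensheath Purkinje dendrites, had 73 of 93 members lower over all nuclei and 2 higher, where 32.9% of genes were lower and 25.8% higher. Among nuclei of 10000 to 40000 UMIs 3 of 90 members were lower and 1 was higher, where 23% of genes were lower and 22.3% higher. With the 3 WT mice alone 4 members were lower and 1 higher over all nuclei. The ratios of shares over all nuclei were 0.862, 0.669 and 0.763 in the WT mice and 0.832, 0.781 and 0.767 in the SCA1 mice. Fewer mice entered the WT fit, so its lower count is not read as a smaller difference, here and below. The share of all genes called with the WT mice alone or with library size only is not given. Those counts, here and below, are therefore not set against a background. The median standard error at 10000 to 40000 UMIs was 0.14, and the mean depth was 12999 UMIs against 14197 UMIs in granule neurons. The summed share of the members was still below that of granule neurons, with a ratio of 0.923 in that class. In the narrower class of 5000 to 10000 UMIs the ratio was 0.854 with 6 of 6 mice below, and at 10000 to 20000 UMIs it was 0.895 with 5 of 5 mice below. Ndufb2, an accessory subunit of complex I, had one of the larger falls over all nuclei (-0.71 ± 0.16, edgeR adjusted p = 0.00318). The Ndufb2 gene overlaps Gm42420 on the same strand and Gm16272 and Braf on the other. Ndufaf5, an assembly factor that modifies Ndufs7, was lower over all nuclei (-0.65 ± 0.12, edgeR adjusted p = 0.000579) and at 10000 to 40000 UMIs (-0.61 ± 0.17, edgeR adjusted p = 0.017).

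Velate astrocytes, which surround granule neurons, had 29 of 91 members lower and 3 higher over all nuclei, where 29.0% of genes were lower and 25.7% higher, so that the lower share was near the background. With library size as the only scaling 4 members were lower and 6 higher, and with the 3 WT mice alone 1 was lower and 2 higher. The main count of 32 called members became 19 without SCA1 mouse 2 and 11 without WT mouse 2. At 10000 to 40000 UMIs 0 of 89 members were lower by edgeR (0 also at an unadjusted p below 0.05) and 2 were higher, where 16.8% of genes were lower and 19.2% higher, and the ratio of shares was 1.10. Oligodendrocytes, the myelinating cells, had 32 of 92 members lower and 1 higher, against 27.0% and 23.1% of genes, and at 10000 to 40000 UMIs 3 of 87 lower and 1 higher, against 16.9% and 19.8%. Oligodendrocytes had a summed share below that of granule neurons in 5 of 5 mice at 5000 to 10000 UMIs (ratio 0.927). The same held in 4 of 4 mice at 10000 to 20000 UMIs (ratio 0.901) and in 4 of 5 mice at 3000 to 5000 UMIs (ratio 0.926). With the 3 WT mice alone 3 members were lower and 1 higher over all nuclei. The higher member was Ndufaf2, at 77.3, 93.6 and 87.2 CPM in SCA1 and 74.3, 95.9 and 71.4 CPM in WT oligodendrocytes, and at 41.6 to 56.0 CPM in granule neurons. Its values did not overlap between the 2 cell types, and its log2 fold change was 0.71 ± 0.10 (edgeR adjusted p = 0.000177) over all nuclei and 0.47 ± 0.15 (edgeR adjusted p = 0.0355) at 10000 to 40000 UMIs. The 156 kb Ndufaf2 gene overlaps Smim15 and a long noncoding gene on the other strand. The 33 called members of oligodendrocytes became 16 without WT mouse 2 and 19 without WT mouse 3. Ndufs4 fell in oligodendrocytes (-0.79 ± 0.10, edgeR adjusted p = 6.99e-05) to 108 ± 20.3 CPM from 178 ± 13.6 CPM (mean ± SD, n = 6).

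In Gad1Gad2.Lgi2 neurons, whose label held the highest Golgi cell markers, 78 of 91 members were lower and 3 higher, against 28.5% and 21.1% of genes. Among nuclei of 10000 to 40000 UMIs 49 of 86 were lower and 3 higher, against 23.9% and 20% of genes and with a mean depth of 22643 UMIs against 14200 UMIs in granule neurons, and at 20000 to 40000 UMIs 0 of 86 were lower by edgeR (7 at an unadjusted p below 0.05) and 2 higher, against 15.6% and 14.4%. Ndufa13, an accessory subunit also known as GRIM-19, fell over all nuclei from 152 ± 83.9 CPM to 55.8 ± 37.5 CPM (mean ± SD, n = 6), with a log2 fold change of -1.61 ± 0.14 (edgeR adjusted p = 2.86e-08). The Ndufa13 gene overlaps Yjefn3 on the same strand and Tssk6 on the other. The spread of the CPM values is that between mice, and each of the 6 mice was lower in this label.

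In Slc17a6.Nrgn neurons 83 of 93 members were lower and 5 higher over all nuclei, against 34.4% and 27.4% of genes. The counts at 10000 to 40000 UMIs were 66 and 5 of 89, against 25.5% and 29.6%, and at 20000 to 40000 UMIs they were 15 and 3 of 87, against 22% and 22.6%. The last share of lower members was no larger than that of all genes, and in the wider class these neurons were still deeper (mean 22029 UMIs) than granule neurons (14200 UMIs). The summed share of the members was nevertheless below that of granule neurons in 5 of 5 mice at 20000 to 40000 UMIs (ratio 0.852) and in 4 of 4 mice at 10000 to 20000 UMIs (ratio 0.851). Uqcr11, the smallest complex III subunit, stood at 75.3, 46.6 and 11.8 CPM in SCA1 and 73.8, 47.4 and 8.41 CPM in WT mice, against 171, 141 and 34.4 CPM and 192, 82.0 and 29.9 CPM in granule neurons. Its log2 fold change over all nuclei was -1.51 ± 0.11 (edgeR adjusted p = 9.87e-08), and all 6 mice were lower. In Slc17a6.Sln neurons, where unipolar brush cell markers were highest, 37 of 92 members were lower and 1 higher, against 15.3% and 10.4% of genes. With library size as the only scaling 9 were lower and 3 higher, and with the 3 WT mice alone 7 were lower and 0 higher. At 10000 to 40000 UMIs 0 of 88 were lower by edgeR (2 at an unadjusted p below 0.05) and 1 was higher, against 11.6% and 8.89%. The summed share turned from 0.907 to 1.20 times that of granule neurons.

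The 4 Pvalb labels, inhibitory neurons with high molecular layer interneuron markers, are given in turn. Pvalb-Chrm2 neurons had 75 of 92 members lower and 4 higher over all nuclei, against 24.6% and 22.3% of genes. In nuclei of 10000 to 40000 UMIs, with means of 19029 UMIs against 14197 UMIs in granule neurons, 28 of 87 were lower and 4 higher, against 18.8% and 19.3%, and at 20000 to 40000 UMIs 2 of 83 were lower and 5 higher, against 13.8% and 16.9%. Pvalb-Nefh neurons had 65 of 93 lower and 5 higher, against 28.5% and 20.8%, and at 10000 to 40000 UMIs 3 of 90 lower and 4 higher, against 24.4% and 17.3%. The summed share of the members was 0.832 times that of granule neurons over all nuclei and 1.08 times in that class. Pvalb-Cadm1 neurons had 51 of 91 lower and 4 higher, against 21.4% and 15.6%. The 51 include Cox4i2, which had 0 UMIs there and passed the filter only through granule neurons. At 10000 to 40000 UMIs Pvalb-Cadm1 neurons had 0 of 87 lower by edgeR (1 at an unadjusted p below 0.05) and 6 higher, against 15.5% and 15.9%. Their summed share turned from 0.876 to 1.13 times that of granule neurons, and it was above in each mouse with enough nuclei at 5000 to 10000 UMIs (2 mice, ratio 1.19) and at 10000 to 20000 UMIs (3 mice, ratio 1.08). Pvalb-Rab3b neurons had 50 of 91 lower and 3 higher, against 19.6% and 14.5%, and in that class 0 of 89 lower by edgeR (0 also at an unadjusted p below 0.05) and 3 higher, against 12.6% and 13.1%. Their summed share turned from 0.894 to 1.11 times that of granule neurons. With library size as the only scaling 26 members of Pvalb-Rab3b neurons were lower and 3 higher. With the 3 WT mice alone 2 were lower and 1 higher in Pvalb-Rab3b, 19 and 2 in Pvalb-Cadm1 and 16 and 2 in Pvalb-Nefh neurons. The differences between the 4 labels were not tested. Tip.Dcn.Nnat nuclei had 71 of 91 lower and 1 higher, against 28.5% and 21.3% of genes. The 71 include Cox6a2, which had 0 UMIs there and passed the filter only through granule neurons. With library size as the only scaling 5 were lower and 1 higher, and with the 3 WT mice alone 10 and 1. At 10000 to 40000 UMIs 7 of 88 were lower and 1 higher, against 21.1% and 18.4%. In these nuclei the summed share turned from 0.879 to 1.09 times that of granule neurons.

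**Figure D4:**
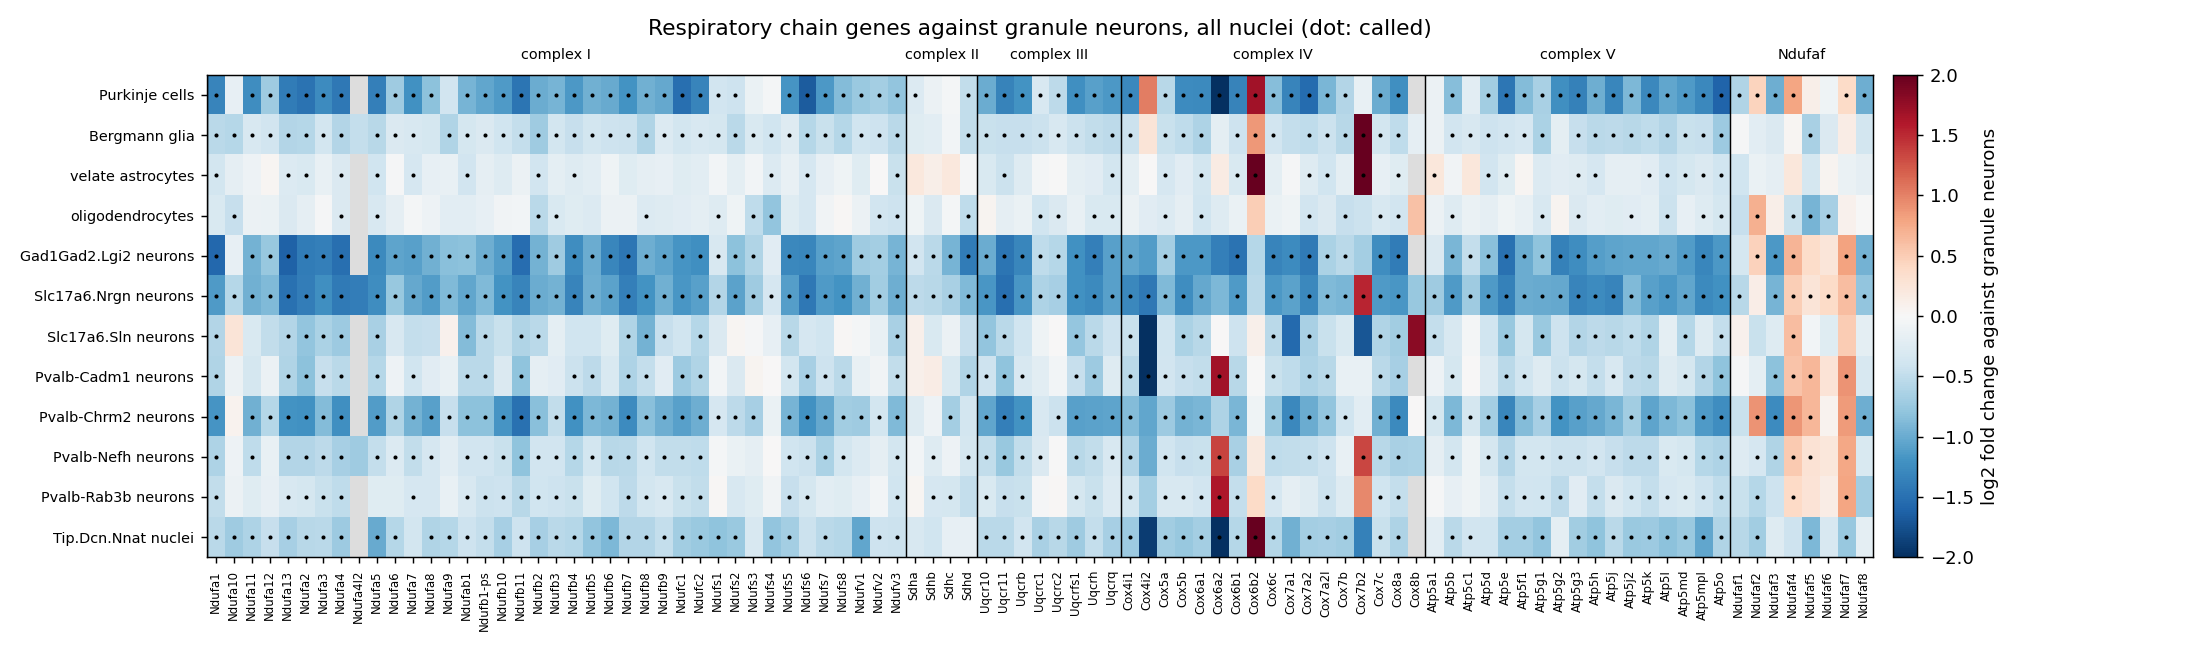
Log2 fold change of each tested member (columns, by complex) against granule neurons in 12 labels (rows), all nuclei, with the colour scale ending at -2 and 2, a black dot where the edgeR adjusted p is at most 0.05, and grey where a member was not tested. Blue columns run through complexes I, III, IV and V, and red cells stand in some columns of the Ndufaf block and at Cox6a2, Cox6b2 and Cox7b2.

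91 members were tested in all 12 labels. Of these, 53 (58.2%) were lower in at least 8 labels over all nuclei, where 18.0% of the 14899 genes tested in all 12 labels were. In Pvalb-Cadm1 neurons 50 of 76 members under 20 kb were lower and 0 of 14 longer ones. These counts were 63 of 78 and 1 of 14 in Pvalb-Nefh neurons. In Bergmann glia they were 63 of 78 and 9 of 14, and in oligodendrocytes 24 of 77 and 7 of 14. In all 12 labels 5 members (5.49%) were lower, against 3.26% of genes: Cox6a1, the common form of subunit 6A, Cox8a, Ndufa4, Atp5o and the complex I subunit Ndufv3. 9 members (9.89%) were higher in at least 1 label, against 57.6% of genes. Of the 9 members, 5 are assembly factors (Ndufaf2, Ndufaf4, Ndufaf5, Ndufaf6 and Ndufaf7), 3 are second isoforms of complex IV subunits (Cox6a2, Cox6b2 and Cox7b2), and 1 is Atp5a1, whose call in velate astrocytes (0.23 ± 0.09, edgeR adjusted p = 0.0395) was lost without any 1 of SCA1 mice 2 and 3 and WT mice 2 and 3 (edgeR adjusted p = 0.0812 to 0.0913). With library size as the only scaling 3 further members of the enzyme complexes were called higher, Ndufa10 in Slc17a6.Sln neurons (0.50 ± 0.17, edgeR adjusted p = 0.016), and Atp5c1 (0.34 ± 0.10, edgeR adjusted p = 0.0142) and Sdha (0.32 ± 0.10, edgeR adjusted p = 0.0221) in velate astrocytes. Cox8b was tested in 6 labels, Ndufa4l2 in 3 and Cox8c in 0, and these were called in none.

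The summed share of the 8 Ndufaf genes was higher than in granule neurons in 6 of 6 mice in each of the 7 neuronal labels other than Purkinje cells, with ratios between 1.22 (Pvalb-Rab3b neurons) and 1.64 (Pvalb-Chrm2 neurons), where the complex IV share had ratios between 0.511 and 0.857. The 8 genes did not all go that way, and no test of the group was made. Ndufaf4 was higher in the 8 neuronal labels over all nuclei and Ndufaf7 in 7 of them. With library size as the only scaling Ndufaf4 was also called higher in velate astrocytes (0.34 ± 0.10, edgeR adjusted p = 0.0121). The Ndufaf4 call of Slc17a6.Sln neurons was lost without SCA1 mouse 1 or WT mouse 2 (edgeR adjusted p = 0.220 and 0.0715). In Pvalb-Chrm2 neurons Ndufaf7 stood at 78.1, 86.1 and 66.8 CPM in SCA1 and 78.9, 101 and 102 CPM in WT mice, and in granule neurons at 38.8, 55.5 and 36.9 CPM and at 39.4, 55.2 and 31.5 CPM. The lowest value of the first label lay above the highest of the second. The log2 fold change was 0.86 ± 0.13 over all nuclei (edgeR adjusted p = 1.8e-05) and 1.25 ± 0.24 at 20000 to 40000 UMIs (edgeR adjusted p = 0.00194). Ndufaf4 at 10000 to 40000 UMIs was higher in each of the 8 neuronal labels, from 0.47 ± 0.14 in Pvalb-Nefh neurons (edgeR adjusted p = 0.0176) to 1.21 ± 0.12 in Pvalb-Chrm2 neurons (edgeR adjusted p = 4.42e-06).

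Ndufaf5 was higher in 4 neuronal labels over all nuclei, among them Pvalb-Chrm2 neurons at 58.3 ± 4.85 CPM against 32.3 ± 3.59 CPM in granule neurons (mean ± SD, n = 6; 0.67 ± 0.12, edgeR adjusted p = 0.000204), and lower in 3 labels. Ndufaf2 was higher in 4 labels and lower in 3, among them Pvalb-Rab3b neurons (-0.57 ± 0.14, edgeR adjusted p = 0.00456). Ndufaf6 was higher in Slc17a6.Nrgn neurons (0.38 ± 0.10, edgeR adjusted p = 0.00536) and lower in oligodendrocytes (-0.67 ± 0.14, edgeR adjusted p = 0.00264). Ndufaf1, Ndufaf3 and Ndufaf8 were higher in no label. Ndufaf3 was lower over all nuclei in 6 labels, all of them neuronal, among them Pvalb-Chrm2 neurons (-1.25 ± 0.29, edgeR adjusted p = 0.0017) and Pvalb-Cadm1 neurons (-0.82 ± 0.26, edgeR adjusted p = 0.0139), whose call was lost without SCA1 mouse 1 (edgeR adjusted p = 0.0885). Ndufaf8 was lower in 4 of the same 6 labels, among them Purkinje cells (-0.98 ± 0.23, edgeR adjusted p = 0.00285), and Ndufaf1 in Purkinje cells and Slc17a6.Nrgn neurons. The first of these Ndufaf1 calls was lost without any 1 of SCA1 mouse 1 and WT mice 1 and 2 (edgeR adjusted p = 0.0621 to 0.130), and the second without any 1 of SCA1 mouse 2 and WT mice 1 and 3 (edgeR adjusted p = 0.0673 to 0.113). None of these 3 genes was called at 10000 to 40000 UMIs in any label where it was tested, and Ndufaf8 in Purkinje cells turned to 0.08 ± 0.38. In Tip.Dcn.Nnat nuclei at 10000 to 40000 UMIs both Ndufaf5 (-1.05 ± 0.36, edgeR adjusted p = 0.0244) and Ndufaf7 (-0.98 ± 0.34, edgeR adjusted p = 0.0261) were lower. Ndufaf4 lies at chr4:24898083-24905001 on the plus strand (GRCm38) and Ndufaf7 at chr17:78937136-78948052 on the plus strand, and the annotation places no other gene over either.

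Of the second isoforms of complex IV subunits, Cox6a2, Cox6b2 and Cox7b2 were called higher than in granule neurons in some labels, and Cox4i2, Cox7a1 and Cox8b in none. The promoters of Cox7b2 and Cox6b2, from 150 to 21 bases before the RefSeq start (GRCm38.p6), are printed with those of the common forms, because each pair is read as a share of its 2 genes. Cox6a2 has no entry in the RefSeq table used. Capitals mark the motif CTTCCGG, the reverse of CCGGAAG, which ETS factors such as GABPA bind. The windows are chrX:106015550-106015679 (plus strand) for Cox7b, chr5:71548226-71548355 (minus strand) for Cox7b2, chr7:30626135-30626264 (minus strand) for Cox6b1 and chr7:4753115-4753244 (minus strand) for Cox6b2, each read 5′ to 3′ on the strand of its gene.
Cox7b: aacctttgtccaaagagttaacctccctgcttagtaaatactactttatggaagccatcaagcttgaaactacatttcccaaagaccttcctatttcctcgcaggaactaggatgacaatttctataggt
Cox7b2: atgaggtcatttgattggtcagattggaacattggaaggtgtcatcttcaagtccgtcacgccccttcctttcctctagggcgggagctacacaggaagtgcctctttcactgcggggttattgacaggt
Cox6b1: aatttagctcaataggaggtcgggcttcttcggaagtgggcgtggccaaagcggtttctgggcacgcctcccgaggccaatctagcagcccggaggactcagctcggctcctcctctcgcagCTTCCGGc
Cox6b2: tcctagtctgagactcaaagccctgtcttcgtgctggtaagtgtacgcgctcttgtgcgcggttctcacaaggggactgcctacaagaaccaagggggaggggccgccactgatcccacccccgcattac

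Cox6b1 held the ETS motif with its first base 28 bases before the RefSeq start. The GENCODE gene Cox6b1 begins 37 bases before that start, so by that annotation the motif lies within the first exon and not upstream of the gene. No searched motif was found in the other 3 windows printed. Over the 75 members with an entry, the 300 bases from 250 before to 50 after the start held CCGGAAG or its reverse in 19 (25.3%), the NRF1 core GCATGCGC or its reverse in 12 (16%) and the YY1 core AAGATGGC or its reverse in 10 (13.3%). The same windows of 27025 genes held them in 9.93, 3.05 and 3.19%. Any of the 3 motifs stood in 34 members (45.3%) and in 14.9% of all genes. A match is a stretch of letters and says nothing about binding in these nuclei.

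Cox7b2 is the paralogue of subunit 7B known from testis, and its gene spans 105 kb of chromosome 5 where Cox7b spans 6.75 kb of the X chromosome. It stood at 60.7, 48.2 and 86.5 CPM in the Bergmann glia of SCA1 mice and at 51.5, 35.9 and 49.7 CPM in those of WT mice, and at 0.884 to 3.49 CPM in granule neurons. The 2 cell types were far apart in each of the 6 mice, with a log2 fold change of 4.48 ± 0.25 (edgeR adjusted p = 1.18e-07) over all nuclei and of 4.61 ± 0.36 (edgeR adjusted p = 6.5e-06) at 10000 to 40000 UMIs. Velate astrocytes held 40.8 ± 16.9 CPM (mean ± SD, n = 6; 3.95 ± 0.33, edgeR adjusted p = 4.4e-07), and Slc17a6.Nrgn and Pvalb-Nefh neurons were also called higher (1.53 ± 0.43 and 1.33 ± 0.26, edgeR adjusted p = 0.00753 and 0.00145). As a percentage of the UMIs of Cox7b and Cox7b2 together, with the 6 mice pooled, Cox7b2 made up 27.4% in Bergmann glia (exact binomial 95% interval 25.6 to 29.3), 17.4% in velate astrocytes (15.7 to 19.2), 5.83% in Slc17a6.Nrgn neurons and 1.43% in oligodendrocytes. The intervals cover counting error only, and single mice spread more widely, from 19.4% (WT mouse 1) to 59.5% (SCA1 mouse 3) in Bergmann glia and from 10.9% (WT mouse 2) to 45.0% (WT mouse 3) in velate astrocytes. These ranges overlap, and a difference between those labels was not tested. In granule neurons the mice lay between 1.09 and 2.06%. The percentages compare cell types, not the 2 genes, which differ in length.

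Cox6b2 had another pattern. In Tip.Dcn.Nnat nuclei it stood at 38.9, 34.1 and 29.1 CPM in SCA1 and 42.1, 26.3 and 25.0 CPM in WT mice, above every granule value (0.636 to 6.12 CPM), with a log2 fold change of 3.13 ± 0.36 (edgeR adjusted p = 1.4e-06) and of 3.86 ± 0.51 at 10000 to 40000 UMIs (edgeR adjusted p = 1.72e-06). In velate astrocytes it stood at 17.8 ± 5.43 CPM (mean ± SD, n = 6; 2.40 ± 0.40, edgeR adjusted p = 0.000211), and Bergmann glia were also called higher (0.87 ± 0.34, edgeR adjusted p = 0.048) with 4 of 6 mice above, a call that was lost without any 1 of 4 mice (SCA1 mice 1, 2 and 3 and WT mouse 1, edgeR adjusted p = 0.0562 to 0.173). Of the UMIs of Cox6b1 and Cox6b2 it made up 20.8% in Tip.Dcn.Nnat nuclei (16.7 to 25.2), 19.5% in the untested choroid plexus label (13.2 to 27.3), 14.2% in Purkinje cells (11.6 to 17.1) and 9.62% in velate astrocytes (8.13 to 11.3). The first 3 intervals overlap. A percentage is also larger where the common form is low. With the mice pooled, Cox6b2 stood at 8.92 CPM in Purkinje cells and 17.5 CPM in velate astrocytes, and Cox6b1 at 53.8 and 164 CPM. Single mice ran from 16.1 to 37.8% in Tip.Dcn.Nnat nuclei, from 6.25 to 38.9% in Purkinje cells and from 5.36 to 26.5% in velate astrocytes, so that the order of these labels is not set, and from 1.20 to 3.63% in granule neurons.

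Cox6a2 was higher in 3 of the 4 Pvalb labels. Pvalb-Nefh neurons held 3.05, 5.04 and 2.67 CPM in SCA1 and 4.69, 7.57 and 1.03 CPM in WT mice, against 0.458 to 2.43 CPM in granule neurons. Each mouse was higher in Pvalb-Nefh neurons, although the ranges overlap, and the log2 fold change was 1.36 ± 0.36 (edgeR adjusted p = 0.00859). The counts behind it were small (54 UMIs), and smaller still in Pvalb-Rab3b (20 UMIs, 1.62 ± 0.56, edgeR adjusted p = 0.0301) and Pvalb-Cadm1 neurons (14 UMIs, 1.67 ± 0.58, edgeR adjusted p = 0.0263). Without any 1 of SCA1 mice 1 and 3 and WT mouse 2 the Pvalb-Rab3b call was lost (edgeR adjusted p = 0.0708 to 0.130), and without any 1 of SCA1 mouse 2 and WT mice 2 and 3 the Pvalb-Cadm1 call was lost (edgeR adjusted p = 0.0721 to 0.140). The Cox6a2 gene, of 0.953 kb, overlaps Itgad on the other strand. In Tip.Dcn.Nnat nuclei it had 0 UMIs of 2272009, with an exact upper limit of 1.62 CPM. That limit overlaps the granule interval of 1.53 to 1.86 CPM. There it passed the filter on low counts only through granule neurons, so its call is not read as a result. The call was lost without any 1 of the 6 mice (edgeR adjusted p = 0.0564 to 0.102).

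Cox4i2, the lung-type isoform of subunit 4, had 0 UMIs in Pvalb-Cadm1 neurons. Its exact upper limit there was 1.17 CPM, against an interval of 1.24 to 1.54 CPM in granule neurons. It passed the filter there only through granule neurons, so its call is not read as a result. Cox4i2 made up 1.56% of the Cox4i1 and Cox4i2 UMIs in Purkinje cells (0.978 to 2.35) against 0.325% in granule neurons (0.291 to 0.361). Single mice ran from 0.696 to 4.40% and from 0.206 to 0.542%. With the mice pooled, Cox4i1 stood at 132 CPM in Purkinje cells and 425 CPM in granule neurons, and Cox4i2 at 2.09 and 1.39 CPM. The percentages thus differ largely through the common form. The 22 UMIs of Cox4i2 in Purkinje cells gave a log2 fold change of 1.02 ± 0.43 that was not called (edgeR adjusted p = 0.0567). With the mice pooled, Ndufa4l2 made up at most 0.295% of its pair with Ndufa4 in the tested labels with a UMI of it. Single mice reached up to 1.26% (SCA1 mouse 3 in Pvalb-Nefh neurons). Other second isoforms were Cox7a1, 2.66% of its pair with Cox7a2 in Purkinje cells and 2.45% in granule neurons, and Cox8b, with 0.205 and 0.162% of its pair with Cox8a. Among the genes for the c subunit of ATP synthase, Atp5g1 made up 59.5% of its pair with Atp5g3 in Purkinje cells (56.5 to 62.4) and 47.1% in granule neurons (46.7 to 47.5), and Atp5g2 made up 42.2% of its pair with Atp5g3 in Purkinje cells (38.6 to 45.8) and 36.4% in granule neurons (36.0 to 36.8). Over single mice the Atp5g1 percentages ran from 54.7 to 66.2% and from 45.5 to 50.1%, which do not overlap, and the Atp5g2 percentages from 25.0 to 45.2% and from 33.8 to 41.6%, which do. Each of these genes had a lower pooled level in Purkinje cells than in granule neurons. The levels were 60.8 against 134 CPM for Atp5g1, 30.3 against 85.9 CPM for Atp5g2 and 41.5 against 150 CPM for Atp5g3.

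**Figure D5:**
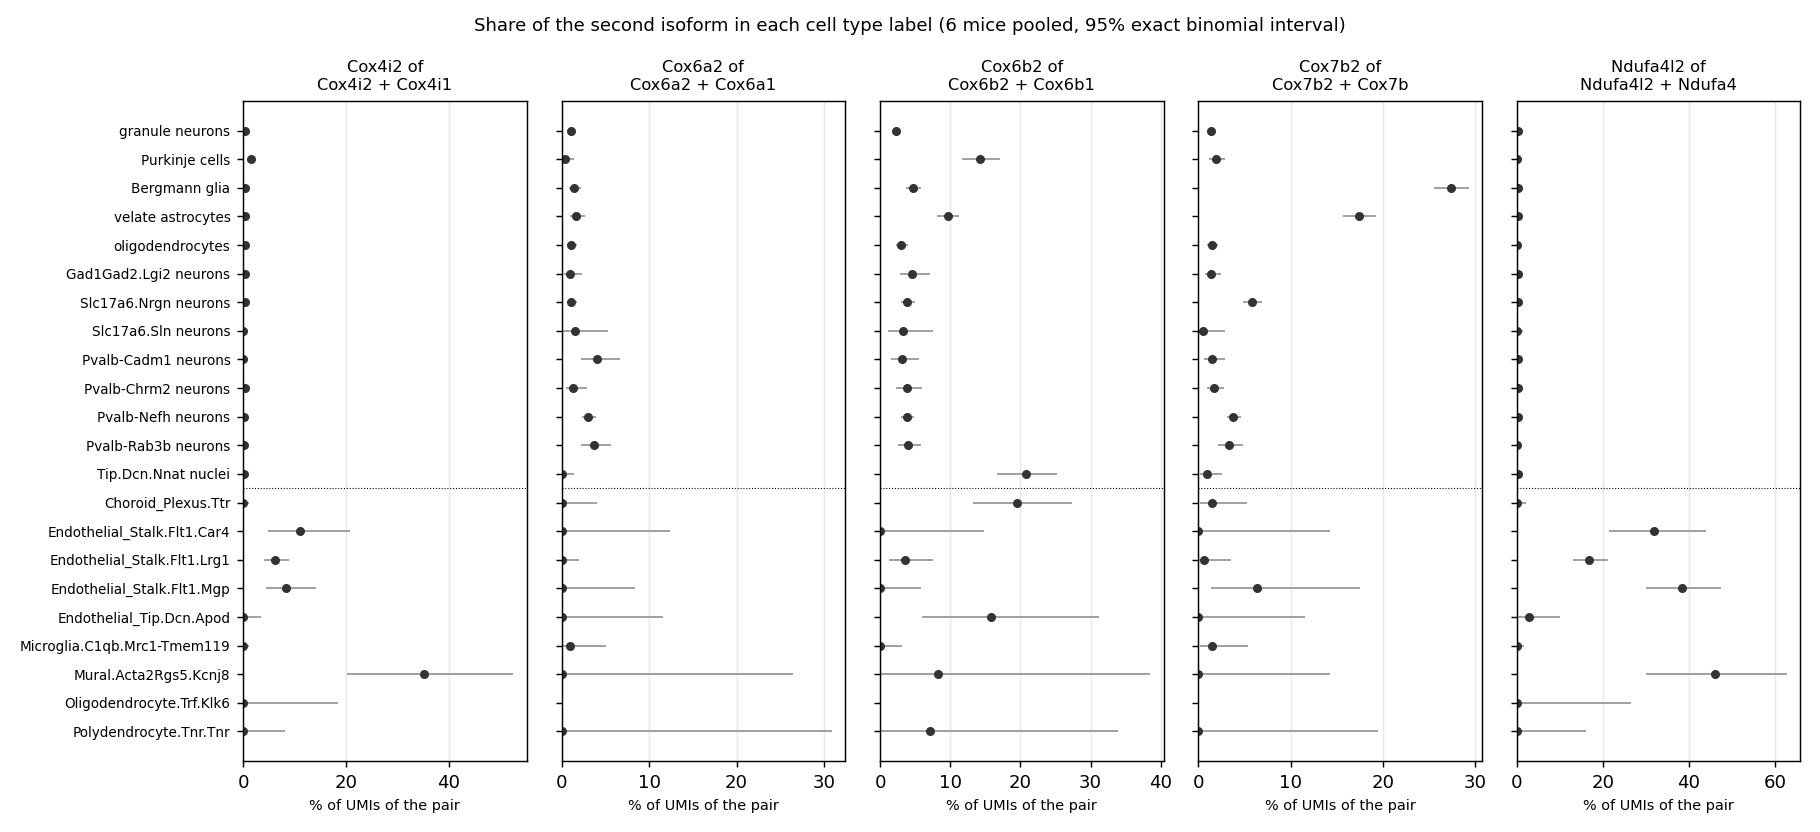
Percentage of the UMIs of an isoform pair that come from the second isoform, in each label with its mice pooled (6 in the tested labels, 1 to 6 in the others), with exact binomial 95% intervals; labels below the dotted line were not tested. Cox7b2 stands out in Bergmann glia (27.4%) and velate astrocytes (17.4%), and Cox6b2 in Tip.Dcn.Nnat nuclei (20.8%), the choroid plexus label and Purkinje cells (14.2%). A percentage is also larger where the common form is low, as Cox6b1 is in Purkinje cells (53.8 against 171 CPM in granule neurons).

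Of the mitochondrially encoded subunits, 0 of 13 were called in Purkinje cells by edgeR (0 also at an unadjusted p below 0.05) where 35.5% of all genes were lower and 25.2% higher. Their median log2 fold change against granule neurons was 0.03, beside -0.98 for the members and -0.20 for all genes. In Gad1Gad2.Lgi2 and Slc17a6.Nrgn neurons all 13 were lower, with medians of -1.25 and -0.99, against 28.5% and 34.4% of all genes with medians of -0.14 and -0.11. In Bergmann glia 9 of 13 were lower (median -0.38), against 32.9% of genes (median -0.15). These RNAs are mitochondrially encoded and the profiled material was nuclei, so their medians are not read as levels in the cells. Their share of granule UMIs ran from 0.598 to 4.98% over the mice, and how they came to be counted was not tested. The cytosolic ribosomal protein genes, short like most members, were lower in 82 of 84 tested in Purkinje cells (median -1.49). Glycolytic enzymes were lower in 11 of 16 and higher in 2 there (median -0.99), and in velate astrocytes higher in 6 and lower in 2 of 16 (median 0.15), against 25.7% and 29.0% of genes (median -0.12). Enzymes of pyruvate dehydrogenase and the citric acid cycle were higher in 3 and lower in 2 of 16 in Purkinje cells (median -0.17). Of the assembly factors and carriers outside the symbol rule 9 of 34 were higher and 11 lower in Purkinje cells (median -0.18), and of the biogenesis factors 3 of 11 were higher and 7 lower (median -0.57). The higher shares of these last 2 lists, and the lower share of the first of them, were near those of all genes in Purkinje cells. These lists were tested over all nuclei and not within the depth classes.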

How the data were processed

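Nuclei of whole cerebella were profiled by 10x single-nucleus RNA sequencing. The study allowed alignment to unspliced RNA, so UMIs could also come from introns. The deposited matrices hold UMI counts per gene and nucleus as the authors made them, not normalized, together with the cell type labels the authors deposited. Per the labels, Cell Ranger 4.0.0, 5.0.1 and 6.0.1, Seurat 4.0.4 and R 4.1.0 appear in the submitters' processing notes, with no role or order. The gene table holds human ATXN1 beside the mouse genes. Doublets were not called again here.

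Counts were summed per mouse and label. A label was tested if every mouse had at least 10 nuclei. Genes were filtered with filterByExpr (minimum count 10, minimum total 15), scaled by TMM and tested over all genes with edgeR's quasi-likelihood test, adjusted by Benjamini-Hochberg at 0.05. SCA1 against WT had the library set as a covariate: set A is mouse 1 of each genotype and set B mice 2 and 3, inferred from library numbers. Cell types were compared with granule neurons with the mouse as a block. The scripts were tested on simulated data. DESeq2, limma, other scalings, filters and subsets were alternatives, and the depth classes were added after the data had been seen. Intervals cover counting error only.

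The members and lists were chosen with earlier results of these data known. Named members were those called between genotypes in any label, up to 3 per direction whose genotypes did not overlap in Purkinje cells, up to 3 called members with the largest change per direction and label, the isoform sets, and the most counted member of each complex, in UMIs and per kilobase. Other members, among them Cox6b2 and Ndufaf3 between genotypes and Ndufs4, were named after their values had been seen. Gene spans came from GENCODE vM21 (GRCm38) for 93 of 94 members, since 2 annotated genes bear the name Atp5o. Overlaps with other genes are given for some named members only. R 4.3.3, edgeR 4.0.16, limma 3.58.1, DESeq2 1.42.0, Python 3.11.15, pandas 2.3.3, numpy 2.4.6, scipy 1.17.1 and matplotlib 3.10.9 were used.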

Additional observations from a re-analysis of the deposited data

Results flagged for a closer look

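The labels with too few nuclei for a test held a signal of isoforms that were rare in the tested labels, with the mice of a label pooled and no test between labels. These labels held 22 nuclei of 6 mice (Endothelial_Stalk.Flt1.Car4), 89 nuclei of 6 mice (Endothelial_Stalk.Flt1.Lrg1), 25 nuclei of 4 mice (Endothelial_Stalk.Flt1.Mgp) and 20 nuclei of 5 mice (Mural.Acta2Rgs5.Kcnj8). Ndufa4l2, a hypoxia-inducible paralogue of Ndufa4, stood at 163 CPM in Endothelial_Stalk.Flt1.Car4, 63.3 CPM in Endothelial_Stalk.Flt1.Lrg1, 195 CPM in Endothelial_Stalk.Flt1.Mgp and 198 CPM in Mural.Acta2Rgs5.Kcnj8 nuclei, from 23, 58, 50 and 18 UMIs, which came from 3, 5, 2 and 5 mice. Of the UMIs of Ndufa4 and Ndufa4l2 it made up 46.2% in the last label (exact binomial 95% interval 30.1 to 62.8). Cox4i2, the lung-type isoform of subunit 4, stood at 56.6, 29.5, 46.9 and 143 CPM in the same 4 labels, from 8, 27, 12 and 13 UMIs, which came from 2, 3, 2 and 5 mice. Of the UMIs of Cox4i1 and Cox4i2 it made up 35.1% in Mural.Acta2Rgs5.Kcnj8 nuclei (20.2 to 52.5). For each of these levels the whole counting interval lay above the highest level of the same gene in any tested label, which is why it is given here.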

How the results depend on the processing

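Between genotypes 0 members were called in 202 label and setting pairs. Same-numbered mice deviated together (correlation above 0.1 in every pair) in 6 of 13 labels. In the other labels pair 2 fell below that, while pairs 1 and 3 still correlated. The correlations of pairs 1, 2 and 3 were 0.67, 0.06 and 0.48 in Purkinje cells and 0.73, 0.09 and 0.58 in oligodendrocytes. With the replicate block 0 members were called and 15 passed an unadjusted p below 0.05. Counts against granule neurons moved most, and the share of all genes called is given only for the main fit and the depth classes. With WT mice only they were 5 in Bergmann glia, 3 in velate astrocytes, 4 in oligodendrocytes, 7 in Slc17a6.Sln, 21 in Pvalb-Cadm1, 18 in Pvalb-Nefh and 3 in Pvalb-Rab3b neurons, and 11 in Tip.Dcn.Nnat nuclei. With library size only they were 10 in velate astrocytes, 21 in oligodendrocytes, 12 in Slc17a6.Sln, 29 in Pvalb-Rab3b neurons and 6 in Tip.Dcn.Nnat nuclei. With all labels in one fit they were 18 in velate astrocytes and 20 in oligodendrocytes, with nuclei of at least 3000 UMIs 21 in velate astrocytes, without a filter 50 in oligodendrocytes, and by DESeq2 11 in Slc17a6.Sln neurons. Leaving out 1 mouse at a time gave 11 to 29 calls in velate astrocytes and 16 to 49 in oligodendrocytes, and moved the genotype difference of the share between -0.65 and 0.76 (log2) over the labels.

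At 10000 to 40000 UMIs they were 41 in Purkinje cells, 4 in Bergmann glia, 2 in velate astrocytes, 4 in oligodendrocytes, 52 in Gad1Gad2.Lgi2, 1 in Slc17a6.Sln, 6 in Pvalb-Cadm1, 32 in Pvalb-Chrm2, 7 in Pvalb-Nefh and 3 in Pvalb-Rab3b neurons, and 8 in Tip.Dcn.Nnat nuclei. At 20000 to 40000 UMIs they were 3 in Purkinje cells, 2 in Gad1Gad2.Lgi2, 18 in Slc17a6.Nrgn and 7 in Pvalb-Chrm2 neurons. The log2 difference of the share from granule neurons at 10000 to 40000 UMIs was -0.48 in Purkinje cells, -0.12 in Bergmann glia, 0.13 in velate astrocytes, -0.23 in Gad1Gad2.Lgi2, -0.25 in Slc17a6.Nrgn, 0.26 in Slc17a6.Sln, 0.18 in Pvalb-Cadm1, -0.0235 in Pvalb-Chrm2, 0.11 in Pvalb-Nefh and 0.16 in Pvalb-Rab3b neurons, and 0.13 in Tip.Dcn.Nnat nuclei. At 20000 to 40000 UMIs it was -0.16 in Purkinje cells, -0.0778 in Gad1Gad2.Lgi2, -0.23 in Slc17a6.Nrgn and 0.0862 in Pvalb-Chrm2 neurons, and as a mean over nuclei -0.87 in Purkinje cells. Among nuclei of 10000 to 40000 UMIs Uqcr11 in velate astrocytes turned to 0.20, Ndufb11 in Pvalb-Rab3b neurons to 0.00114 and Ndufaf8 in Purkinje cells to 0.0778 (log2). The cause of these changes was not tested. The labels as most frequent in their cluster could not be fitted for Tip.Dcn.Nnat, Gad1Gad2.Lgi2, Pvalb-Chrm2, Pvalb-Rab3b, Slc17a6.Nrgn and Slc17a6.Sln.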
